A study of Mus musculus with 33 samples.

Results

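The preoptic area (POA) of the hypothalamus was compared between female mice 4 months after ovariectomy (OVX) and intact female mice. The libraries were chosen by their labels for region and group, which gave 6 libraries at 4 months and 5 intact libraries, 11 of the 33 in the series. The study followed the response to the loss of ovarian hormones by bulk RNA-seq in the POA and in a second region, the posterior hypothalamus (PH). All mice were wild-type C57BL/6 females, and those of the OVX groups were ovariectomized at 3 to 4 months of age. Mice of the intact group were killed before any OVX, in diestrus, so they were younger than the mice at 4 months, and age and time since OVX cannot be told apart in this comparison. In their titles the control libraries are called sham, but their genotype label reads intact, and intact is the name used here. Among the intact libraries, 2 were in batch 1 and 3 in batch 2, and the group at 4 months had 3 libraries in each batch. Another 6 POA libraries, from mice 14 days after OVX, entered the same fit. No label says how many mice stand behind a library, so the *P* values measure only the spread between these libraries.

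The POA holds the neurons that set body temperature, and it also holds GnRH neurons and many neurons with estrogen and progesterone receptors. Immediate early genes are transcribed within minutes of a rise in neuronal activity or of a stress signal, and several of them encode brakes on cell growth or on MAP kinase signaling. Complement is the arm of innate immunity that tags cells and debris, and in the brain its first component is made mainly by microglia, whereas the C4 protein is made largely by astrocytes and oligodendrocytes. Interferons induce antiviral proteins and the machinery of antigen presentation.

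The values are the deposited normalized expression signal on a linear scale, in which genes without measurable expression lie at or near a floor of 22.1. The depth of the libraries in reads is unknown from these values, and counting error could not be estimated. All 18 of 18 genes chosen to mark the POA were expressed above 2 times this floor often enough to be tested, among them *Esr1*, *Gal* and *Gnrh1*. Passing this filter does not show that the tissue was the POA alone, and the levels were not set against those in the PH. Tissue of neighboring structures differed from library to library. The summed signal of 12 choroid plexus genes was 96774 in intact replicate 1, between 7426 and 22143 in the other intact libraries and between 6151 and 34139 at 4 months. Pituitary hormone genes summed to 2175 in intact replicate 2, to 428 to 590.4 in the other intact libraries and to 369 to 620.4 at 4 months. In the 14-day libraries, pituitary genes summed to 531 to 10863 and choroid plexus genes to 7885 to 71482.5. Genes of cortical neurons summed to 10552 in replicate 3 at 4 months and to 2356 to 4191 in the other 4-month libraries. Their sum was 2716 to 5883 in intact libraries. In bulk tissue, a lower value can come from fewer cells of a type or from less RNA per cell, and these cannot be told apart.

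Few genes passed the test. With limma on log2 values, SV1 (the first surrogate variable, an estimate of unwanted variation) as covariate and adjustment over all 21366 genes tested, 20 genes (0.0936% of those tested) had an adjusted *P* under 0.05, and such genes are referred to as called. Of these, 17 (0.0796%) were higher at 4 months and 3 (0.014%) were lower, and 14 of the 20 encode proteins. SV1 took values between 0.186 and 0.352 in the libraries of batch 1 and between -0.322 and -0.125 in those of batch 2, so it separated the batches. Of the 20 called genes, 16 lay above every intact library of the same batch in every library at 4 months, as did 1.1% of all genes tested, and 3 lay below, as did 1.32%. *Npas4* was the exception. The number of calls rested on the covariate: without SV1 only *Btg2* and the long noncoding RNA *A530053G22Rik* were called, and within either batch alone 0 genes were called, with 1408 and 885 genes at an unadjusted *P* under 0.05 (limma).

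Genes of the immediate early class led the list. *Btg2*, an antiproliferative gene induced by p53 and by neuronal activity (chromosome 1 of GRCm39, 134002908 to 134015033, minus strand), was at 395, 467, 503, 705 and 403 in the 5 intact libraries. At 4 months it ranged from 774 to 962, with a median of 889.5, and all 6 libraries lay above every intact library. The difference was 0.89 on the log2 scale (SE 0.11, adjusted *P* = 0.00192, limma), a 1.85-fold higher level. *Dusp1*, a phosphatase that switches off MAP kinases (chromosome 17, 26724564 to 26781102, minus strand), was at 571, 566, 611, 906 and 723 in intact libraries and at 859.7 to 1317 at 4 months, with a median of 1011. The groups of *Dusp1* overlapped through intact replicate 4, which was the highest intact library for both genes, and 5 of 6 libraries at 4 months lay above it. The log2 difference was 0.68 (SE 0.09, adjusted *P* = 0.00265, limma). Both genes were called whichever of the 17 POA libraries was left out, with an adjusted *P* of at most 0.0195 (limma).

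The promoters of *Btg2* and *Dusp1* are shown because they were the 2 of the 14 called coding genes whose window held a full cAMP response element (CRE), TGACGTCA, which reads the same on both strands. The sequences are from GRCm39, 5′ to 3′ on the strand of the gene, and lie before the start of the main transcript, with matched motifs in capitals. *Btg2* is shown from chr1:134006859-134007108, and *Dusp1* from chr17:26727507-26727743, where the 13 bases nearest the start are left out because they overlap an exon of another transcript of the gene.
Btg2: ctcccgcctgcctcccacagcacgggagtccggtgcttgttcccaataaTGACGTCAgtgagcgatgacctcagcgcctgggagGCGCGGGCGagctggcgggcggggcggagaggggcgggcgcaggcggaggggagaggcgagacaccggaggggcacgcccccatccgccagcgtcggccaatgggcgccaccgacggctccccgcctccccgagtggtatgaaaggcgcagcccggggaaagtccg
Dusp1: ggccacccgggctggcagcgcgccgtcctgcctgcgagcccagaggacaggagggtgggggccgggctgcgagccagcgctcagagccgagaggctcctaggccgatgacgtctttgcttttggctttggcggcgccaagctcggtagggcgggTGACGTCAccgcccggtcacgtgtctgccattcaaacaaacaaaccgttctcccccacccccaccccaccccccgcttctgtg
Counted back from the base before the transcript start, the CRE lay at -201 to -194 in *Btg2* and at -96 to -89 in *Dusp1*. Of the 250-base windows of 15916 tested coding genes, 1.87% held a CRE. The second match in *Btg2*, at -166 to -158, is the EGR motif GCGNGGGCG on either strand, which 5.72% of the windows held. An AP-1 site (TGANTCA) was in 0 of the 14 called windows and in 4.90% of all, and the palindromic estrogen response element GGTCANNNTGACC was in 0 of 14 and in 1 of all windows. A match is a description of the letters and was not tested as a binding site.

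*Npas4*, a transcription factor gene induced by calcium entry in neurons, was at 126, 122, 199, 285 and 220.3 in intact libraries and at 234 to 354 at 4 months, with a median of 259. Within batch 1 the groups were apart, whereas in batch 2 intact replicate 4 lay among the libraries at 4 months. Its log2 difference was 0.74 (SE 0.14, adjusted *P* = 0.0428, limma). *Tob1*, an antiproliferative gene of the same family as *Btg2*, was at 2044, 2051, 1679.6, 1757 and 1592 in intact libraries and at 2033 to 2702 at 4 months (median 2289.6), with a log2 difference of 0.28 (SE 0.05, adjusted *P* = 0.0428, limma). *Depp1*, a gene induced by FOXO factors, by fasting and by progesterone, was at 47.5, 49.1, 79.5, 64.1 and 89.4 and at 86.9 to 143 at 4 months (median 109), with a log2 difference of 0.84 (SE 0.15, adjusted *P* = 0.0428, limma). For *Tob1* and *Depp1*, 5 of 6 libraries at 4 months lay above every intact library. All 3 calls were lost when any of 14 of the 17 libraries was left out, with an adjusted *P* of at most 0.195 for *Npas4* and 0.157 for the others (limma).

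The immediate early class did not move as a whole. Of 29 members tested, 3 were called higher (*Btg2*, *Dusp1* and *Npas4*) and 0 lower, and the members with an unadjusted *P* under 0.05 were 8 higher and 6 lower, against 4.1% and 4.4% of all genes tested in these directions. A positive difference was found for 18 of the 29, and for 46.5% of all genes tested, and the median log2 difference was 0.07, beside -0.01 over all genes tested. *Fos*, the classical marker of recent activity, was at 876, 558, 1255, 1459 and 1100.5 in intact libraries and at 747 to 1560.2 at 4 months (median 1197), so the groups overlapped across most of their range (log2 difference 0.24, SE 0.22, adjusted *P* = 0.80, limma). *Egr1*, a zinc finger transcription factor, had values in the other direction. It was at 3720.2, 3219, 4609, 4690.2 and 4496 in intact libraries and at 2416 to 3935 at 4 months, with a median of 2799.9, and 5 of 6 libraries lay below every intact library (log2 difference -0.49, SE 0.17, adjusted *P* = 0.414, limma). *Nr4a3*, an orphan nuclear receptor singled out here after its values were seen, was at 795 to 981 in intact libraries and at 260.0 to 689.9 at 4 months. All 6 of its libraries lay below every intact library, as for 0.253% of all genes tested (log2 difference -0.84, SE 0.21, adjusted *P* = 0.220, limma). The opposite separation, all 6 libraries above, was seen for 0.412% of genes.

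**Figure D1:**
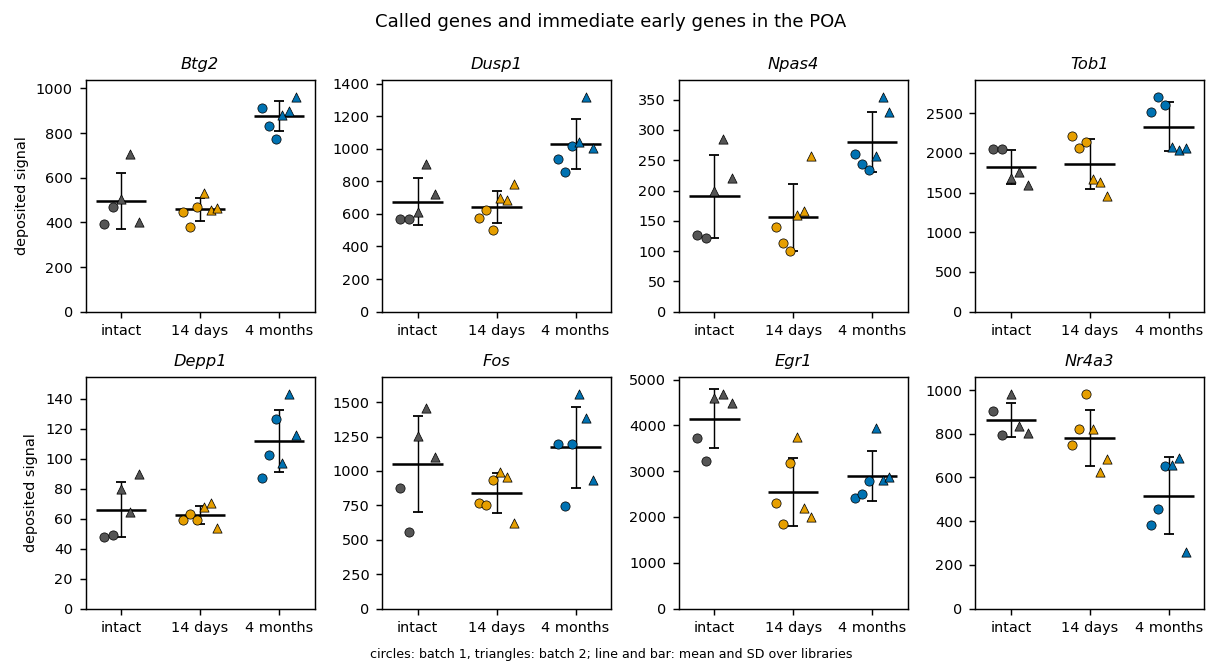
Deposited signal of 8 genes in each POA library of the 3 groups, with the signal on a linear axis from 0 (circles batch 1, triangles batch 2, line and bar mean and SD over 5, 6 and 6 libraries). The 6 libraries at 4 months lie between 774 and 962 for Btg2, above all intact and 14-day libraries, whereas for Egr1 most of them lie below the intact libraries.

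Most other brakes on MAP kinase signaling did not share the direction of *Dusp1*. *Spred3*, an inhibitor of the Ras pathway, was at 2259.6, 1907, 2628, 2189 and 2328 in intact libraries and at 1571 to 2024 at 4 months, with a median of 1723. All but 1 library at 4 months lay below the intact range, and the log2 difference was -0.32 (SE 0.06, adjusted *P* = 0.0428, limma). Its relative *Spred2* was at 3267 to 3555 in intact libraries and at 2856 to 3052 at 4 months, with all 6 libraries below every intact library (log2 difference -0.22, SE 0.05, adjusted *P* = 0.20, limma). Over the 19 feedback genes tested, which also include dual-specificity phosphatases and Sprouty genes, 1 was called higher and 1 lower, 6 had a positive difference (46.5% of all genes tested), and the median was -0.07. The call of *Spred3* was lost when any of 13 of the 17 libraries was left out, with an adjusted *P* of at most 0.198 (limma).

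The comparison with the libraries 14 days after OVX was tested directly. Of 21366 genes, 6 (0.0281%) differed between 4 months and 14 days with an adjusted *P* under 0.05, namely *Btg2*, *Dusp1*, *Npas4*, *Tob1*, *Depp1* and the long noncoding RNA *9630013A20Rik*. *Btg2* was at 378 to 532 at 14 days (median 459.6), and at 4 months it was 0.95 higher on the log2 scale (SE 0.11, adjusted *P* = 5.92e-04, limma). *Dusp1* was at 500.3 to 781 at 14 days and 0.69 higher at 4 months (adjusted *P* = 0.00149, limma). For *Npas4* the log2 difference was 0.91 (adjusted *P* = 0.00679), for *Tob1* 0.32 (adjusted *P* = 0.0105) and for *Depp1* 0.84 (adjusted *P* = 0.0323), all by limma. These contrasts use the same libraries at 4 months as those with the intact group. The other called genes had no such difference with an adjusted *P* under 0.05. *C4b*, for instance, was 0.49 higher at 4 months than at 14 days (SE 0.12, adjusted *P* = 0.561, limma).

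**Figure D2:**
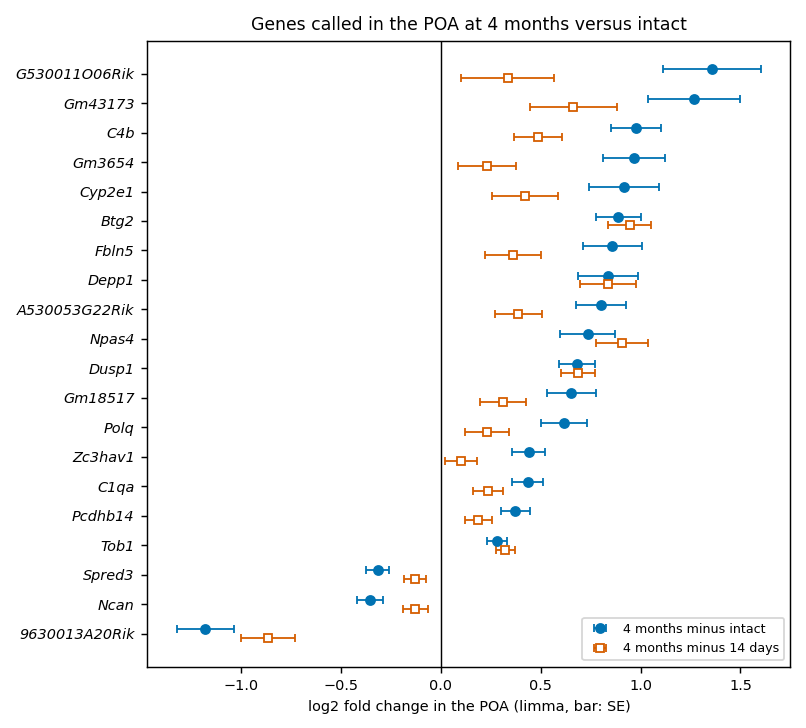
Log2 fold changes with SE (limma) of the 20 genes called at 4 months versus intact, for 4 months minus intact (filled circles) and 4 months minus 14 days (open squares), which share the libraries at 4 months. Btg2, Dusp1, Npas4, Tob1 and Depp1 have nearly equal values in both contrasts, whereas for C4b the value against 14 days, 0.49, is lower than that against intact, 0.98.

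Of the complement genes, *C4b* and *C1qa* were called. *C4b*, a component of the classical and lectin pathways (chromosome 17, 34947354 to 34962912, minus strand), was at 1156, 1249, 2271, 1357 and 1499.8 in the intact libraries. At 4 months it was at 1752 to 3519.7, with a median of 2961, and 4 of 6 libraries lay above every intact library. In batch 1 the values were 1156 and 1249 in intact libraries and 1752 to 2832 at 4 months, and in batch 2 they were 1357 to 2271 and 3090 to 3520, so the groups were apart within each batch. The log2 difference was 0.98 (SE 0.13, adjusted *P* = 0.00303, limma), and it was called whichever library was left out. *C4b* has a near-identical neighbor, *C4a*, and reads shared by the 2 genes may have been split between them.

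*C1qa*, *C1qb* and *C1qc* encode the chains of C1q, which starts the classical pathway, and lie side by side on chromosome 4. *C1qa* was at 1089, 947, 1319, 1185 and 1203 in intact libraries and at 1111 to 1813 at 4 months (median 1493), with a log2 difference of 0.43 (SE 0.08, adjusted *P* = 0.0428, limma). The other chains had like values without passing the test, with 0.29 for *C1qb* (SE 0.09, adjusted *P* = 0.289) and 0.33 for *C1qc* (SE 0.07, adjusted *P* = 0.111, limma). The call of *C1qa* was lost when any of 14 of the 17 libraries was left out (adjusted *P* at most 0.135, limma). *C3*, on which all complement pathways converge, was at 194 to 374 in intact libraries and at 241 to 559 at 4 months (log2 difference 0.49, SE 0.27, adjusted *P* = 0.681, limma). Of the 24 complement genes tested, 2 were called higher and 0 lower, 21 had a positive difference, and the median was 0.18. Over all genes tested, 0.0796% were called higher, 46.5% had a positive difference and the median was -0.01. The complement median was 0.13 at 14 days versus intact, 0.011 for 4 months minus 14 days and 0.21 at 4 months in the PH.

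**Figure D3:**
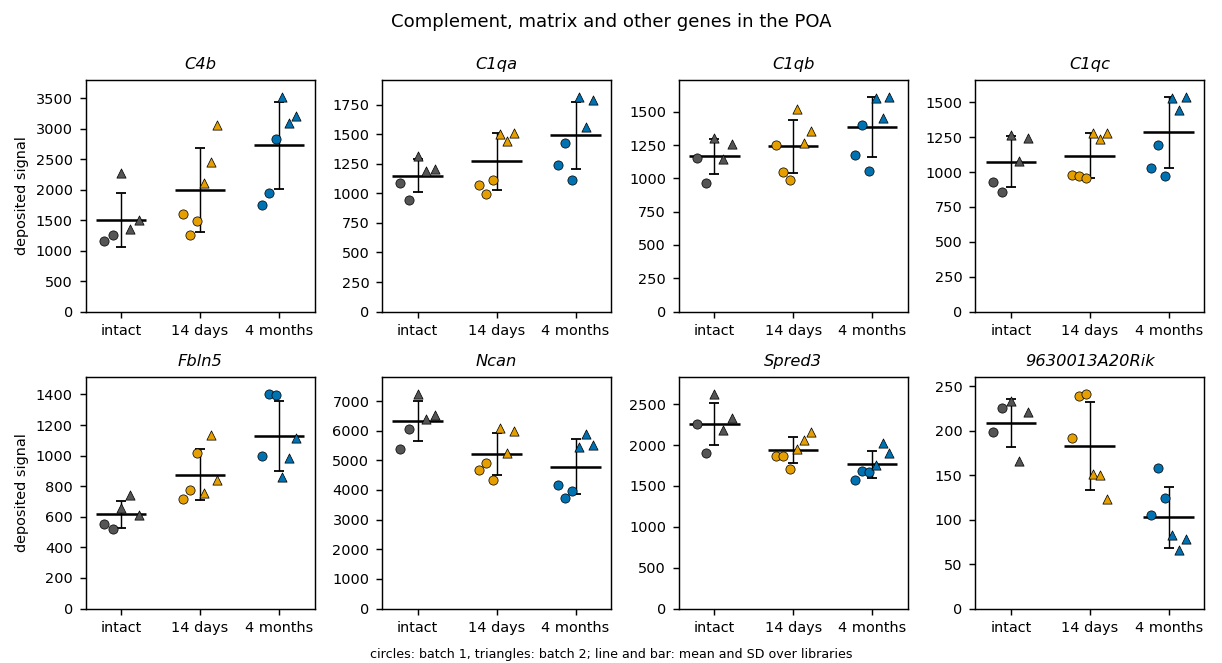
Deposited signal of 8 genes in each POA library of the 3 groups, on linear axes from 0 (circles batch 1, triangles batch 2, line and bar mean and SD). C4b, the C1q chains and Fbln5 lie higher at 4 months, up to 3519.7 for C4b, and Ncan, Spred3 and 9630013A20Rik lie lower, the last with a median of 94.3 against intact values of 165 to 233.

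Microglia markers had small positive values. Of 18 genes of resting microglia, 0 were called, 17 had a positive difference, 11 had an unadjusted *P* under 0.05 in the higher direction and 1 in the lower, and the median was 0.16. Of all genes tested, 46.5% had a positive difference, and 4.1% were higher and 4.4% lower at an unadjusted *P* under 0.05 (limma). *Tyrobp*, an adaptor of microglial receptors, was at 322, 293, 380.0, 329.9 and 377 in intact libraries and at 323 to 569 at 4 months, with 5 of 6 above every intact library (log2 difference 0.47, SE 0.11, adjusted *P* = 0.131, limma). *Aif1*, which encodes the microglial marker IBA1, was at 156 to 186 in intact libraries and at 161 to 233 at 4 months (0.14, SE 0.10, adjusted *P* = 0.749). *Fcrls*, an Fc receptor-like microglial gene, had the opposite direction, with 590.5 to 774 in intact libraries and 393 to 626 at 4 months (-0.37, SE 0.12, adjusted *P* = 0.361, limma). The summed signal of the 18 genes was 17655 to 19256 in intact libraries and 19001 to 21846 at 4 months. Their median log2 difference was 0.13 at 14 days versus intact, 0.06 for 4 months minus 14 days and 0.20 at 4 months in the PH. Among 23 genes of activated microglia, 10 had an unadjusted *P* under 0.05 and were higher, 0 were lower, and 0 were called. *Ctss*, a lysosomal protease, was at 2278 to 3107 in intact libraries and at 3056 to 3839.8 at 4 months (0.34, SE 0.07, adjusted *P* = 0.0937, limma), and *Mpeg1*, a pore-forming protein of phagocytes, had all 6 libraries above every intact library (0.31, SE 0.07, adjusted *P* = 0.0937). How far the number of microglia bears on the complement values was not tested.

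Interferon-induced genes had positive values in nearly all members. Of 44 tested, 42 had a positive difference, against 46.5% of all genes tested, and the median was 0.23. At an unadjusted *P* under 0.05, 11 were higher and 0 lower, against 4.1% and 4.4% of all (limma), and 1 was called. This was *Zc3hav1*, which encodes the antiviral RNA-binding protein ZAP. It was at 645, 540.0, 665, 559.5 and 474 in intact libraries and at 731 to 814 at 4 months, with all 6 libraries above every intact library (log2 difference 0.44, SE 0.08, adjusted *P* = 0.0465, limma). The call was lost when any of 15 of the 17 libraries was left out (adjusted *P* at most 0.149, limma). *Irf1*, a transcription factor of the interferon response, had all 6 libraries above every intact library too, with a lowest value of 319.9 and a median of 345 against intact values of 265 to 319 (0.43, SE 0.14, adjusted *P* = 0.351). The highest summed signal of the 44 genes at 4 months was 23185, in replicate 5, while the other libraries at 4 months lay between 12665 and 15219, and the highest intact library was replicate 3 at 17625, with the others at 11551 to 12816. The median of the list was 0.27 at 14 days versus intact and 0.29 at 4 months in the PH. For 4 months minus 14 days in the POA it was -0.0012.

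Class I antigen presentation had the highest median among the immune lists, 0.41 over 15 genes. Of these, 14 had a positive difference (46.5% of all genes tested), 9 were higher at an unadjusted *P* under 0.05 (4.1%, limma) and 0 were called. Within the batches the class I median was 0.28 and 0.26. It was 0.27 at 14 days versus intact, 0.09 for 4 months minus 14 days and 0.39 at 4 months in the PH. *Psmb8*, a subunit of the immunoproteasome, was at 107 to 169 in intact libraries and at 144 to 340.0 at 4 months (0.66, SE 0.14, adjusted *P* = 0.110, limma), and its partner *Psmb9* had 0.59 (SE 0.20, adjusted *P* = 0.383). *Psmb8* is also in the interferon list, so the counts of both lists overlap. Class II genes had a median of 0.15 over 7 genes, with 0.28 in batch 1 and -0.05 in batch 2. Of the genes of TNF and NF-κB feedback, 23 were tested with a median of 0.06, 0 were called, and the cytokine genes *Tnf*, *Il1b* and *Il6* were too near the floor to be tested, with no library at 4 months above 48.1.

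**Figure D4:**
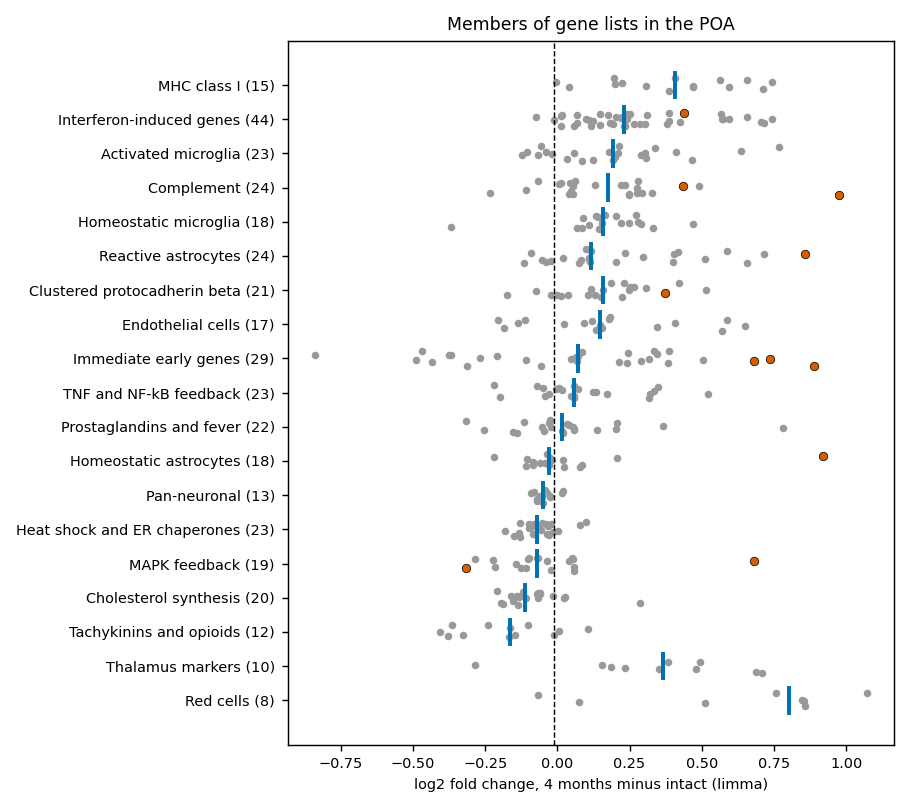
Log2 fold changes (limma, 4 months minus intact) of the tested members of 19 gene lists, with their number in parentheses. Gray points are members, orange points are called members, blue lines are list medians and the dashed line is the median over all genes tested, -0.01. MHC class I (0.41), interferon-induced genes (0.23) and red cell genes (0.80) lie to the right, and tachykinins and opioids (-0.17) to the left.

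Prostaglandins act in the POA as the final signal for fever. *Ptgs2*, the inducible enzyme of prostaglandin synthesis, was at 98.9, 97.8, 70.0, 95.7 and 57.1 in intact libraries and at 99.2 to 192 at 4 months, with a median of 145. All 6 libraries lay above every intact library, the lowest by a small margin, and the log2 difference of 0.78 (SE 0.19) had an adjusted *P* of 0.20 (limma). The within-batch differences were 0.73 and 0.81. *Ptger3*, the prostaglandin E receptor through which fever is set, was at 416 to 531 in intact libraries and at 308 to 432 at 4 months (-0.32, SE 0.11, adjusted *P* = 0.414), and *Ptges*, the synthase downstream of *Ptgs2*, had 0.20 (SE 0.14, adjusted *P* = 0.729). Over the 22 genes of this pathway the median was 0.02 and 0 were called.

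Genes of reactive astrocytes had mostly positive values, and their best known marker had a small one with overlapping groups. *Gfap*, the intermediate filament raised in reactive astrocytes, was at 8528, 7575, 9878, 8509 and 8567 in intact libraries and at 6746 to 12734 at 4 months, so the groups overlapped fully (0.12, SE 0.18, adjusted *P* = 0.896, limma). *Vim* was at 1363 to 1681 in intact libraries and at 1505 to 2356 at 4 months (0.24, SE 0.18, adjusted *P* = 0.754). Among 24 genes of reactive astrocytes, 19 had a positive difference, against 46.5% of all genes tested, and the median was 0.12 (0.23 in batch 1 and 0.08 in batch 2). At an unadjusted *P* under 0.05, 7 were higher and 0 lower, against 4.1% and 4.4% of all (limma), and 1 was called. This was *Fbln5*, an elastic fiber protein that is also made by endothelial cells and fibroblasts. *Fbln5* was at 555, 521, 654, 743 and 611 in intact libraries and at 859 to 1404 at 4 months (median 1059), with all 6 libraries above every intact library (log2 difference 0.86, SE 0.15, adjusted *P* = 0.0428, limma). Of the 18 elastic fiber genes tested, *Fbln5* alone was called, 6 had a positive difference, and the median was -0.07. The call was lost when any of 10 libraries was left out (adjusted *P* at most 0.146, limma). The median of the reactive astrocyte list was 0.17 at 14 days versus intact, 0.03 for 4 months minus 14 days and 0.20 at 4 months in the PH.

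Genes of astrocyte transport and metabolism had a median of -0.03 over 18 members, and 1 was called. This was *Cyp2e1*, a cytochrome P450, at 43.4, 48.3, 36.9, 54.0 and 42.5 in intact libraries and at 68.8 to 147 at 4 months (median 81.3), with all 6 above every intact library (0.92, SE 0.17, adjusted *P* = 0.0465, limma). These levels were close to the filter on low values, 44.1, and the call was lost when any of 14 libraries was left out (adjusted *P* at most 0.198, limma). *Kcnj10*, the astrocytic potassium channel, had all 6 libraries at 4 months (20575 to 24127) below every intact library (24303 to 27924), with -0.22 (SE 0.06, adjusted *P* = 0.240). *S100b* had all 6 above, at 6269.6 to 7738 against 5806 to 6269, with 0.21 (SE 0.05, adjusted *P* = 0.194).

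Of the 3 genes called lower, *Spred3* is described above, and the others were *Ncan* and *9630013A20Rik*. *Ncan* encodes neurocan, a proteoglycan of perineuronal nets (chromosome 8, 70538926 to 70573523, minus strand). It was at 5381, 6070.3, 7240.2, 6385 and 6537 in intact libraries and at 3727 to 5892 at 4 months, with a median of 4805. The groups were apart within each batch but overlapped over both, with 3 of 6 libraries below every intact library, and the log2 difference was -0.35 (SE 0.06, adjusted *P* = 0.0428, limma). The call was lost when any of 12 libraries was left out (adjusted *P* at most 0.146). Of 21 genes of perineuronal nets and proteoglycans, 1 was called lower, 5 had a positive difference (46.5% of all genes tested), and the median was -0.06. *Hapln2*, a link protein at the nodes of myelinated axons, had 0.37 (SE 0.09, adjusted *P* = 0.132), the highest of the list.

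*9630013A20Rik*, a long noncoding RNA of newly forming oligodendrocytes (chromosome 14, 84696079 to 84713864, minus strand), was the fourth gene called whichever library was left out. It was at 198, 226, 233, 165 and 221 in intact libraries and at 66.2 to 158 at 4 months, with a median of 94.3, and all 6 libraries lay below every intact library. The log2 difference was -1.18 (SE 0.14, adjusted *P* = 0.00192, limma), and over the fits that left out a library the adjusted *P* was at most 0.00776 (limma). Against 14 days, where it was at 123 to 241, the difference was -0.86 (SE 0.14, adjusted *P* = 0.0157, limma). *Gpr17*, a receptor of the same stage of oligodendrocyte development, was at 2329, 2149, 3242, 2531 and 3115 in intact libraries and at 1686 to 2196 at 4 months, with 5 of 6 below every intact library (-0.41, SE 0.08, adjusted *P* = 0.0727, limma). *Neu4* had -0.32 (adjusted *P* = 0.342) and *Bcas1* had 0.25 (adjusted *P* = 0.289), so the 15 genes of oligodendrocyte precursors and newly formed oligodendrocytes went both ways. Their median was -0.06, 5 had a positive difference (46.5% of all genes tested), and 0 were called. The 15 genes of mature myelin had a median of -0.09, and 0 were called.

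The remaining coding genes called were *Polq* and *Pcdhb14*. *Polq*, the DNA polymerase of microhomology-mediated end joining, was at 105, 95.9, 98.7, 107 and 89.4 in intact libraries and at 138 to 174 at 4 months, with all 6 above every intact library (0.62, SE 0.12, adjusted *P* = 0.0428, limma). Other genes of double-strand break repair did not share this, with a median of -0.02 over 16 genes. *Pcdhb14*, an adhesion protein of the clustered protocadherins, was at 618, 654, 556, 521 and 525 in intact libraries and at 648 to 945 at 4 months (0.37, SE 0.07, adjusted *P* = 0.0485, limma). Of the 21 genes of the beta cluster, 17 had a positive difference, 9 had an unadjusted *P* under 0.05 and 0 of these were lower, and the median was 0.16. Of all genes tested, 46.5% had a positive difference and 4.1% were higher at an unadjusted *P* under 0.05 (limma). *Pcdhb2* (0.52, adjusted *P* = 0.0913) and *Pcdhb3* (0.31, adjusted *P* = 0.229, limma) had all 6 libraries above every intact library. The genes of this cluster resemble each other in sequence, and how reads were divided among them is uncertain. Each of these 2 calls was lost when any of 16 of the 17 libraries was left out (adjusted *P* at most 0.130 for *Polq* and 0.212 for *Pcdhb14*, limma).

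Among called entries that are not protein-coding, 5 more were higher. *A530053G22Rik* was at 39.9 to 54.3 in intact libraries and at 63.3 to 90.0 at 4 months (0.80, SE 0.13, adjusted *P* = 0.0143). *Gm3654*, a pseudogene, was at 24.5 to 38.8 and 49.2 to 88.3 (0.97, SE 0.16, adjusted *P* = 0.0169). The others were *Gm18517* (1.57-fold higher), *Gm43173* (2.41-fold higher) and *G530011O06Rik* (2.56-fold higher), each with an adjusted *P* of 0.0428 (limma). All 5 had all 6 libraries above every intact library. The intact values of *Gm3654* and *Gm43173* were near the floor, which makes their fold changes depend on it. No intact library reached the filter on low values, 44.1, for either gene. Both were thus tested only through libraries after OVX, and the filter itself favors their separation from the intact libraries. Without the filter, *Gm3654* was called (adjusted *P* = 0.0240, limma) and *Gm43173* was not (adjusted *P* = 0.0590, limma). Leaving out a library lost the call of *A530053G22Rik* for 3 of the 17 libraries, of *Gm3654* for 2, of *Gm43173* for 12, and of *Gm18517* and *G530011O06Rik* for 15 each. With a pseudocount of 50 the calls of *Gm18517* and *G530011O06Rik* were lost too (adjusted *P* = 0.0507 and 0.0607, limma).

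Genes of sex steroid signaling and of the reproductive axis had no call. *Pgr*, the progesterone receptor gene and a classical target of estrogen, was at 2181, 2069, 1772, 1849 and 1853 in intact libraries and at 1512 to 1994 at 4 months, with 3 of 6 below every intact library (-0.24, SE 0.06, adjusted *P* = 0.20, limma). Within each batch its libraries at 4 months all lay below the intact ones, as for 1.32% of all genes tested. *Esr1* was at 687 to 1138 in intact libraries and at 659 to 1248 at 4 months (0.06, SE 0.24, adjusted *P* = 0.969), and *Esr2* had 0.21 (SE 0.14, adjusted *P* = 0.713). *Gnrh1* was at 68.2 to 155 and 57.1 to 255 (0.24, SE 0.42, adjusted *P* = 0.912). Its spread between libraries was wide, so a change of this size was not detectable. *Kiss1* was at the floor in the intact libraries, reached at most 46.3 at 4 months and was not tested.

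Tachykinin and opioid genes had mostly negative values. Of 12 tested, 2 had a positive difference (46.5% of all genes tested), the median was -0.17 and 0 were called. *Tac2*, which encodes neurokinin B, was at 1006, 995, 1251, 1400.0 and 1387 in intact libraries and at 759 to 1404 at 4 months, with 5 of 6 below every intact library (-0.33, SE 0.14, adjusted *P* = 0.527, limma). *Pdyn*, the dynorphin precursor, was at 1149 to 2026 and 848 to 2149 (-0.41, SE 0.25, adjusted *P* = 0.701). *Tacr3*, the neurokinin B receptor, was at 885 to 1043 and 715 to 1053 (-0.15, SE 0.09, adjusted *P* = 0.701).

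The change at 4 months was compared between the POA and the PH by an interaction in a fit of all 33 libraries. The paper took both regions from the females it collected, and no label says which libraries share a mouse. The fit treated all libraries as independent. Of 22141 genes tested, 2 (0.00903%) differed with an adjusted *P* under 0.05. The first was the second of 2 entries named *Gm28040*, a predicted gene whose reads overlap those of *Kiss1*. In the POA this entry, not called there, was at 115, 88.1, 171, 191 and 146 in intact libraries and at 48.8 to 96.3 at 4 months, with 4 of 6 below every intact library (-0.80, SE 0.16, adjusted *P* = 0.0722, limma), whereas in the PH it was 1.86 higher (SE 0.22). The other entry was near the floor in the POA, at 22.7 to 33.4 in intact libraries and 22.2 to 39.6 at 4 months. It was not tested there. The second was *Gm34066*, named here because of its interaction, with -0.25 in the POA and 1.72 in the PH. For the genes called in the POA, the difference between the regions had no adjusted *P* under 0.05. *Btg2* was 0.58 higher at 4 months in the PH (SE 0.13), *C4b* 1.17 (SE 0.16) and *9630013A20Rik* 1.22 lower, at -1.22 (SE 0.17). *Dusp1*, at 0.10 (SE 0.16), had an unadjusted interaction *P* of 0.0146 and an adjusted *P* of 1.00 (limma).

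Markers of cells other than neurons and glia were measured in the same libraries. Red cell genes had the highest median of all lists, 0.80 over 8 genes, with 6 of them higher at an unadjusted *P* under 0.05 and 0 called. Of all genes tested, 4.1% were higher and 4.4% lower at this threshold (limma). *Hbb-bt*, a hemoglobin chain, was at 433, 415, 521, 515 and 1030.2 in intact libraries and at 689 to 1633 at 4 months (1.07, SE 0.27, adjusted *P* = 0.220, limma), with 1.69 in batch 1 and 0.51 in batch 2. The summed red cell signal was 10789 to 19995 in intact libraries and 13087 to 26260 at 4 months. Endothelial genes had a median of 0.15 over 17 genes, of which 5 were higher and 2 lower at an unadjusted *P* under 0.05, and their summed signal was 18696 to 18972 in intact libraries and 18913 to 24135 at 4 months. *Kdr*, a receptor for VEGF, was at 476 to 612 and 555 to 1459.6 (0.65, SE 0.17, adjusted *P* = 0.208), and *Cd34*, a surface protein of endothelial and blood-forming cells, had all 6 libraries above every intact library (0.42, SE 0.09, adjusted *P* = 0.0722, limma). Of 10 thalamus genes, 9 had a positive difference (46.5% of all genes tested) with a median of 0.37, and the 13 pan-neuronal genes had a median of -0.05. The part that blood, vessels or dissection have in the differences above was not tested.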

How the data were processed

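The analyzed data are 1 deposited table of normalized expression signal for 33 libraries of the mouse PH and POA. The authors made stranded poly(A) libraries, pseudoaligned the reads with kallisto, used mm39 as the build and tested with DESeq2, per the labels and their methods. How the signal was scaled is not given in the sources used here. The deposited signal is linear, decimal and not counts, so the analysis used limma 3.58.1 under R 4.3.3 on log2 values, the test planned for such a table, without a pseudocount, with trend and robust variance estimates. Entries with no gene name, 1259 in all, were not tested. A gene was tested when it reached 44.1, which is 2 times the floor, in at least 5 POA libraries. The fit held the 3 POA groups and SV1, estimated in 5 rounds over the 17 POA libraries. The interaction was fitted on all 33 libraries. *P* values were two-sided and Benjamini-Hochberg adjusted across every gene that was tested. The fits were tested on simulated data. Gene types and positions are from GENCODE M39 (GRCm39), which lacks 972 of the 41565 named entries.

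The named genes were the called coding genes, the coding genes of next smallest *P* up to 25, called genes of other types, the called members and up to 4 further members of smallest *P* of each list described, and a fixed set of genes of reproduction, fever, inflammation and glia; *Gm34066* and *Nr4a3* were added after their values were seen. The members and lists were chosen with earlier results of these data known, and a list built around a called gene is no independent evidence. Some lists share members, so their counts are not separate. Alternatives are given with the closing observations.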

Additional observations from a re-analysis of the deposited data

Results flagged for a closer look

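In 98 groups of libraries (49 genes, intact and 4 months), 6 held a library far from the others of its group, where chance flags about 1 in 20 groups. *Cyp2e1* was at 147 in replicate 2 at 4 months, with the others at 68.8 to 93.1. *Mpeg1* was at 1381 in replicate 5 at 4 months, below the others at 1549 to 1608. *Tac2* was at 1404 in the same library, with the others at 759 to 992, and without it every library at 4 months would lie below the intact libraries. *Egr1* was at 3935 in replicate 4 at 4 months, with the others at 2416 to 2884. In intact replicate 4, *Ctdnep1*, a nuclear envelope phosphatase, was at 2256, with the others at 2019.5 to 2062, and *Gm43173* was at 39.6, with the others at 22.8 to 23.7.

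The entry of *Gm28040* that was tested changed differently in the POA and the PH at 4 months, with an interaction of -2.67 on the log2 scale (adjusted *P* = 8.33e-06, limma).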

How the results depend on the processing

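Against the 20 genes called between 4 months and intact, 2 were called without a covariate, 2 with a replicate block in place of SV1, 8 without the filter on low values, 7 without trend and robust estimates, 2 with only the 2 groups in the fit and 0 within each batch alone, where the smallest adjusted *P* was 0.115 and 0.0507 (limma). A fit with batch and a component from floor values, an alternative added after seeing the data, called 55. Leaving out 1 library gave 4 calls (without intact replicate 1 or replicate 6 at 4 months) to 37 (without 14-day replicate 6). Batch in place of SV1 gave 21 calls, of which 18 were among the 20. With a pseudocount of 50, 14 genes were called, all among the 20. Coding genes lost at this setting were *Cyp2e1* (adjusted *P* = 0.0765, limma) and *Polq*, *Zc3hav1* and *Pcdhb14* (each adjusted *P* = 0.0507, limma). For 4 months against 14 days, 1 gene was called without a covariate, and leaving out 1 library gave 3 to 7. For the interaction, 1 gene was called with the replicate block, and leaving out 1 library gave 1 to 3. Over 49 named genes, the log2 difference of no called gene changed sign. It did for 4 genes that were not called: *Esr1* (0.06) had -0.14 with SV1 and batch together, -0.12 with batch and the component from floor values and -0.081 to 0.16 over the fits that left out 1 library, *Gfap* (0.12) had -0.088 in batch 1 alone and -0.065 with the replicate block, *Gnrh1* (0.24) had -0.016 with SV1 and batch together and -0.11 with batch and the component from floor values, and *Tacr3* (-0.15) had 0.014 in batch 1 alone. Intact and 4-month POA libraries with the same replicate number did not deviate together, with correlations from -0.31 to 0.37, and were not taken as pairs. They come from different mice, so this check cannot show a pairing of PH with POA libraries, which was not examined. The causes of these shifts were not tested, and the depth in reads, which limits low genes, is unknown.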

Other observations

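Genes of cholesterol synthesis had mostly negative values at 4 months. Of 20 tested, 3 had a positive difference, 8 had an unadjusted *P* under 0.05 in the lower direction and 0 in the higher, and the median was -0.11, with 0 called. Of all genes tested, 46.5% had a positive difference and 4.4% were lower at an unadjusted *P* under 0.05 (limma). *Idi1*, an isomerase of the isoprenoid pathway, was at 4932, 4223, 3271, 3513 and 3595 in intact libraries and at 3004 to 3999 at 4 months (-0.21, SE 0.06, adjusted *P* = 0.220, limma). *Cyp51*, a sterol demethylase, was at 4337 to 5220.1 and 3788 to 4479, with 4 of 6 below every intact library (-0.19, SE 0.06, adjusted *P* = 0.306). The within-batch medians of the 20 genes were -0.12 and -0.08. Stress-induced chaperones had a median of -0.07 over 23 genes, of which 3 had a positive difference and 0 were called.

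Among coding genes just past the threshold, *Isoc2b* and *Ctdnep1* had all 6 libraries at 4 months below every intact library. *Isoc2b*, a hydrolase-like gene, was at 216, 232, 168, 229 and 256 in intact libraries and at 138 to 167 at 4 months (-0.53, SE 0.11, adjusted *P* = 0.0662, limma). *Ctdnep1* had -0.27 (SE 0.06, adjusted *P* = 0.0706). *Sfrp5*, a secreted antagonist of Wnt signaling, was at 547 to 797 and 412 to 567 (-0.36, SE 0.07, adjusted *P* = 0.0613), and *Edn1*, the precursor of endothelin, was at 90.8 to 109 and 123 to 187 with all 6 above (0.55, SE 0.11, adjusted *P* = 0.0722, limma). At 14 days *Isoc2b* was at 149 to 170.0 and *Ctdnep1* at 1657 to 1934, and both contrasts share the intact libraries.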
